A study of Mus musculus with 6 samples.

Results

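Junb, Cdkn1a, Ccn2, Myc and Tgif1 are classical response genes of transforming growth factor beta (TGF-beta), and their promoters were followed here on arrays made with antibodies to SMAD4, SMAD2 and SMAD1/5. The 5 genes were chosen by name and not by a cut on any value, out of 17039 genes on the arrays, but with earlier results of these data known. All probes whose annotation names 1 of the genes were taken, 217 of 474380 probes, with Ccn2 listed under its older name Ctgf and Tgif1 under Tgif. The study mapped where SMAD proteins lie on promoters of R1, a line of mouse embryonic stem cells, by chromatin immunoprecipitation read on promoter tiling arrays (ChIP-chip). The cells were undifferentiated, grew without feeder cells in the presence of leukemia inhibitory factor, and received no other treatment according to the labels. For each of the 3 antibodies, immunoprecipitated DNA carried Cy5 and whole cell extract DNA, the input, carried Cy3, with 2 arrays per antibody that hold different probes. There was 1 biological replicate per antibody, so no p-value is given, every SD below is over neighbouring probes of 1 array, and no value has a replicate check.

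No dye swap was made, so dye and immunoprecipitation cannot be told apart. The titles and sample types of the SMAD2 arrays name Smad2, while their extraction text names the Smad1/5 antibody, and they are called SMAD2 arrays here by title. The share of probes with an input well above background was 99.6% and 99.7% on the SMAD4 arrays, 88.5% and 86.1% on the SMAD2 arrays, and 72.3% and 87.0% on the SMAD1/5 arrays. The SD of single-probe log2 ratios was 0.99 and 0.98 for SMAD4, 0.93 and 0.91 for SMAD2, and 1.93 and 1.76 for SMAD1/5. The same height of a ratio therefore stood further out of the spread on the SMAD4 and SMAD2 arrays than on the SMAD1/5 arrays. DNA binding gives no expression level, so neither the activity of the genes nor the identity of the cells could be checked from these arrays.

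TGF-beta, Activin and Nodal receptors phosphorylate SMAD2 and SMAD3, BMP receptors phosphorylate SMAD1, SMAD5 and SMAD8, and both groups enter the nucleus with SMAD4. In epithelial cells the pathway is known to stop growth by raising cell cycle inhibitors such as Cdkn1a and lowering Myc, and in mesenchymal cells it raises matrix genes such as Ccn2. Junb is an early activated gene of many SMAD responses, and Tgif1 encodes a corepressor that binds SMAD2 and limits the response. In embryonic stem cells Nodal and Activin signals act through SMAD2, and BMP signals through SMAD1 and SMAD5 help to hold cells undifferentiated in the presence of leukemia inhibitory factor.

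The probes of the genes were 45 to 60 bases long. Junb had 62 probes on array 1, at chr8:83562183-83574714 in the array annotation, which spanned 9821 bp before its start site to 2658 bp after it. Cdkn1a had 34 probes at chr17:27282057-27289639, Ccn2 had 42 at chr10:24341044-24348872, Myc had 40 at chr15:62054197-62062166 and Tgif1 had 39 at chr17:69128339-69136677, all on array 2. The sources used here do not name the genome build of these positions. Within 1000 bp of the start site lay 11 probes of Junb, 9 of Cdkn1a, 10 of Ccn2, 12 of Myc and 12 of Tgif1. Of the Junb probes, 34 lay in a promoter that the annotation calls divergent and shares with Hook2, which encodes a protein that links cargo to microtubules. The annotation also lists 37 of the 62 probes under Prdx2, a peroxiredoxin gene whose start lies at least 6469 bp from them.

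The RefSeq promoter sequences of Junb and Cdkn1a are shown because these 2 genes had the SMAD2 windows with a z above 2, and because GTCT, with its reverse complement AGAC, is the short element that the DNA-binding domain of SMAD3 and SMAD4 is known to contact. They run 5′ to 3′ on the strand of the gene, each for 300 bases ending 50 bases after a start site, and GTCT and AGAC stand in capitals. Cdkn1a has 2 start sites in that table. By the array's own distances, every probe of these 2 windows lay farther before its start site than the printed letters reach before theirs. If the start sites are the same, the capitals lie outside both windows.
Junb promoter, GRCm38.p6 chr8:84978699-84978998, minus strand: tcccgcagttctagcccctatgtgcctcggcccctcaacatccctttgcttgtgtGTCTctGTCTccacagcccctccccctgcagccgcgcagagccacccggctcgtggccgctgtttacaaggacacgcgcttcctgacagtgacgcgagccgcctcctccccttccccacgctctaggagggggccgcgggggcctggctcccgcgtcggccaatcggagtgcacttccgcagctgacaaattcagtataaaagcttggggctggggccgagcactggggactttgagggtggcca
Cdkn1a promoter, first start, GRCm38.p6 chr17:29090729-29091028, plus strand: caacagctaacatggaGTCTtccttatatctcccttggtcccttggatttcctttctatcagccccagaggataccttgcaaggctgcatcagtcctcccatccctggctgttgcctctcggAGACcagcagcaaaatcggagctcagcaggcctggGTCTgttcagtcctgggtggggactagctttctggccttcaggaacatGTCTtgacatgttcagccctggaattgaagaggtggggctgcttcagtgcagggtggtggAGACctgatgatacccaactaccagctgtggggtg
Cdkn1a promoter, second start, GRCm38.p6 chr17:29093519-29093818, plus strand: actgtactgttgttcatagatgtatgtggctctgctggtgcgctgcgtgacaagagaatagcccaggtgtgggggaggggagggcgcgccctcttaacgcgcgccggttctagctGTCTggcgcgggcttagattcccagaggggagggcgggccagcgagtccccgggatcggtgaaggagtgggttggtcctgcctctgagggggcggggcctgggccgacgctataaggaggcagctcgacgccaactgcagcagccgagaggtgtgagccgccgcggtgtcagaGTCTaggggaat
Of the 5 genes 3 had an entry in that table, Tgif1 with 5 start sites. Junb held 2 copies of GTCT, which began 195 and 189 bases before the start site, and no AGAC. The first Cdkn1a promoter held 5 copies of GTCT or AGAC and the second held 2. The 5 Tgif1 promoters held 0 to 4 copies. The element is common: 88.0% of 32851 promoters in the table hold at least 1 copy on either strand, with a median of 2. The GC-rich element GGCGC or GCGCC, which some SMADs also contact, occurred 4 times in the second Cdkn1a promoter and is held by 36.9% of all promoters. GGCCG or CGGCC occurred 5 times in the Junb promoter, and 35.2% of all promoters hold it. None of the promoters of the 3 genes held the palindrome GTCTAGAC, the AP-1 site TGAGTCA or TGACTCA, or the E-box CACGTG, which 0.213%, 5.20% and 7.15% of all promoters hold. The E2F-like letters TTGGCGG or CCGCCAA, part of the known TGF-beta inhibitory element, occurred once, in a Tgif1 promoter, against 2.74% of all promoters. A match is a description of letters, and the probes could not be placed on these sequences because their build is not given.

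None of the 5 promoters was called enriched with SMAD4, SMAD2 or SMAD1/5. Windows were means of the log2 ratio of immunoprecipitate over input for the probes within 500 bp of a probe, and the window z is the distance from the array's median window in robust SDs. A call needed a z of at least 4 and at least 2 probes above the array's 95th percentile. A z of 4 stood for a window mean of 4.94 and 4.89 times the array median with SMAD4, and 4.90 and 4.68 times with SMAD2. With SMAD1/5 it stood for 24.4 and 18.0 times, and 0 of 16725 genes were called, so this call cannot set the 5 genes apart. Of all genes, 2.49% were called enriched with SMAD4, 0.0658% with SMAD2 and 0% with SMAD1/5, so 0 of 5 stands near the background with each antibody. The rule turned over called 0 of the 5 genes low with any antibody, against 0.0478%, 0.329% and 2.62% of all genes with SMAD4, SMAD2 and SMAD1/5. No promoter mean over the probes within 1000 bp of the start passed 2-fold in either direction. Among all genes, 2.69% passed upwards with SMAD4, 0.704% with SMAD2 and 4.17% with SMAD1/5, and 0.741%, 1.1% and 20.3% passed downwards.

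At the lesser mark, a highest window z of at least 2, 1 of the 5 genes passed with SMAD4 against 40.1% of all genes. With SMAD2, 2 of the 5 passed against 18.4%. With SMAD1/5, 0 of the 5 passed against 5.94%. The gene above the mark was Tgif1 for SMAD4, and the genes above it were Junb and Cdkn1a for SMAD2. Low windows, with a z of at most -2, were found in 1 gene with SMAD4 (Junb) against 18.2% of all genes, in 3 genes with SMAD2 (Cdkn1a, Myc and Tgif1) against 30%, and in 2 genes with SMAD1/5 (Junb and Ccn2) against 32.2%. Counts of 0 to 3 among 5 genes are too few to set apart from these shares. The window of 2.80 at Junb with SMAD2 was the highest z of all 15 pairs of gene and antibody, at the 97.2 percentile of all genes' highest windows.

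**Figure D1:**
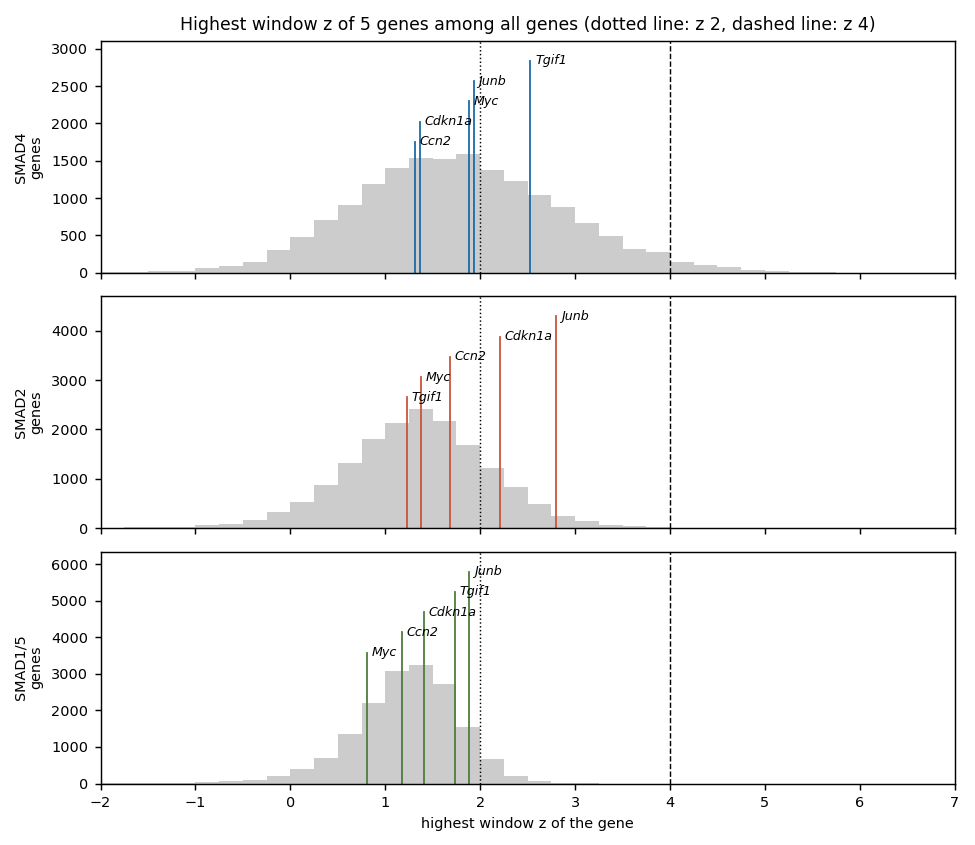
Histograms give the highest window z of each gene on the arrays for SMAD4, SMAD2 and SMAD1/5 from top to bottom (x axis: z in robust SDs; y axis: number of genes), and coloured lines mark the 5 genes. All 5 genes lie left of the dashed line at z 4, and 3 of the 15 lines lie right of the dotted line at z 2: Tgif1 with SMAD4 at 2.53, and Junb at 2.80 and Cdkn1a at 2.21 with SMAD2.

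Junb encodes a subunit of the AP-1 transcription factor. Its SMAD2 window lay at chr8:83565127-83566106, centred 725 bp before the start site, in the stretch annotated as the promoter of Junb and outside the part shared with Hook2. All 7 of its probes are also listed under Prdx2. The 7 probes of the window, 1217, 1101, 839, 725, 544, 407 and 290 bp before the start, had SMAD2 log2 ratios of 2.50, 1.42, 1.02, 2.99, 1.01, -0.25 and 2.60. Their mean was 1.61 ± 1.15 (SD over 7 probes), with 6 of 7 probes above 1. The same probes had log2 ratios with SMAD4 of -0.90, 0.19, 0.66, 0.67, 1.22, 0.20 and -0.89, a mean of 0.17 ± 0.80. With SMAD1/5 they had 0.25, -0.04, -0.95, 0.47, 0.35, 2.89 and 2.85, a mean of 0.83 ± 1.47. The SMAD2 values of the window therefore lay above the SMAD4 values at 5 of 7 probes and above the SMAD1/5 values at the 5 probes farthest from the start, and below SMAD1/5 at the 2 nearest.

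Each channel was also read alone, as log2 signal minus the median of that channel on its array. In the Junb window the SMAD2 immunoprecipitate averaged 1.07 and the SMAD2 input -0.63. On the SMAD4 array the immunoprecipitate averaged 1.49 and the input 1.44, and on the SMAD1/5 array 0.11 and -0.04. The immunoprecipitate level was thus highest on the SMAD4 array, where the ratio was near 0, and the SMAD2 input was the lowest of the 3 inputs. The input of the probe 290 bp before the start was not well above background with SMAD2, nor with SMAD1/5. With the mean input of the 3 antibodies in place of its own, the highest SMAD2 window of Junb had a z of 2.01, and under all 8 alternatives tried it kept a z of 2 or more (range 2.01 to 2.88).

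Over the 11 probes within 1000 bp of the start, Junb averaged 0.01 ± 0.94 with SMAD4, 0.63 ± 1.27 with SMAD2 and -0.17 ± 2.23 with SMAD1/5. The SMAD2 mean ranked at the 93.8 percentile of all promoters, its SD over probes was larger than the mean, and with the mean input of the 3 antibodies it was 0.18. The SMAD4 ratio was higher away from the start: the best window, centred 3430 bp before it in the divergent promoter shared with Hook2, averaged 1.15 ± 0.54 over 6 probes, a z of 1.93. The lowest SMAD4 window of Junb was centred 1111 bp after the start, with -1.19 ± 0.92 over 7 probes and a z of -2.25.

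Cdkn1a encodes p21, an inhibitor of cyclin-dependent kinases. Its 9 promoter probes had SMAD2 log2 ratios between 0.04 and 1.47, all 9 above 0, with a mean of 0.46 ± 0.49 at the 86.1 percentile of all promoters. With the mean input of the 3 antibodies this mean was -0.17. With SMAD4 they lay between -1.71 and 0.61, with 4 of 9 above 0 and a mean of -0.38 ± 0.81. With SMAD1/5 they lay between -1.69 and 3.16, with 3 of 9 above 0 and a mean of 0.06 ± 1.75. The ranges of the 3 antibodies overlapped. The SMAD2 window with a z of 2.21 held 3 probes, 1183, 1007 and 745 bp before the start, with ratios of 2.61, -0.35 and 1.47. The highest of them had a log2 level of 0.31 in the immunoprecipitate and -2.37 in the input, which was not well above background. The highest SMAD2 window of Cdkn1a, which could lie elsewhere in the gene, fell below a z of 2 in 7 of 8 alternatives, down to 0.85. On the SMAD4 array the lowest window of Cdkn1a lay 143 bp before the start, with -0.86 ± 0.79 over 4 probes, where SMAD2 averaged 0.35 ± 0.36.

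Myc encodes the growth-promoting factor that TGF-beta lowers in epithelial cells. Its 12 promoter probes averaged -0.34 ± 0.53 with SMAD4, 0.16 ± 0.93 with SMAD2 and -0.21 ± 1.19 with SMAD1/5, and none of its windows passed a z of 2 with any antibody. The highest windows had a z of 1.88 with SMAD4, 1.38 with SMAD2 and 0.81 with SMAD1/5. Only 2 of 12 promoter probes lay above 0 with SMAD4, against 5 with SMAD2 and 4 with SMAD1/5. The lowest SMAD2 window, 2463 bp after the start, averaged -1.31 ± 0.39 over 3 probes, a z of -2.45.

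The 2 Myc probes nearest before the start were bright in both channels of all 3 arrays. At 181 bp before the start the log2 level over the array median was 4.99 in the immunoprecipitate and 5.12 in the input with SMAD4, 5.23 and 4.91 with SMAD2, and 4.98 and 6.09 with SMAD1/5. At 37 bp before it the levels were 5.44 and 5.50 with SMAD4, 4.37 and 4.37 with SMAD2, and 5.85 and 7.90 with SMAD1/5. The ratios at these probes were therefore small for SMAD4 (-0.03 and 0.04) and SMAD2 (0.24 and -0.07), and negative for SMAD1/5 (-0.67 and -1.61). The high immunoprecipitate levels at these probes thus came with input levels as high or higher, except at 181 bp with SMAD2, where the immunoprecipitate lay 0.24 above by the ratio. Levels of different probes also depend on their sequence, so channels were compared at the same probe.

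**Figure D2:**
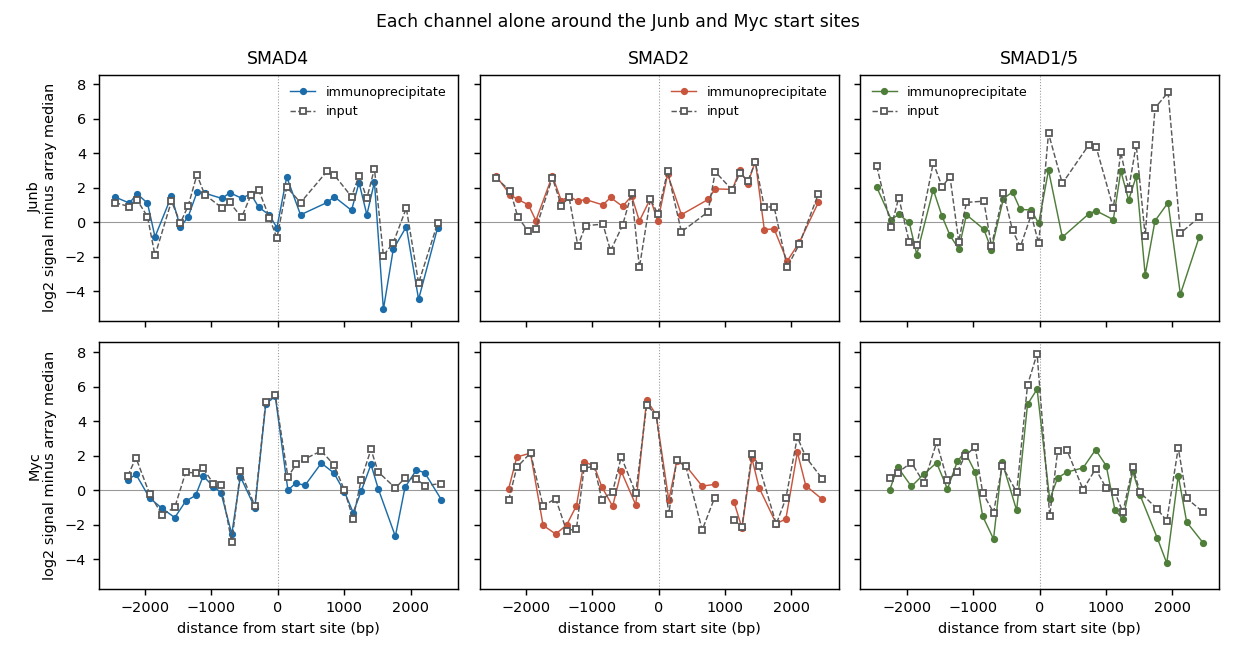
The log2 signal minus the array's median of that channel (y axis) is drawn against distance from the start site in bp (x axis) for Junb (top) and Myc (bottom), with SMAD4, SMAD2 and SMAD1/5 from left to right, filled points for the immunoprecipitate and open squares for the input. At Junb the SMAD2 immunoprecipitate lies above its input at 6 of the 7 probes of the window before the start, with means of 1.07 in the immunoprecipitate and -0.63 in the input, and at Myc both channels are high at the probes 181 and 37 bp before the start on all 3 arrays.

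Ccn2 encodes a secreted matrix protein, connective tissue growth factor. Its 10 promoter probes averaged -0.15 ± 0.63 with SMAD4, -0.26 ± 0.99 with SMAD2 and -0.05 with SMAD1/5, where the probes lay between -1.98 and 2.18. All 3 means lay within 1 SD of 0. The highest windows reached a z of 1.31 with SMAD4 at 3272 bp before the start, 1.68 with SMAD2 at 2411 bp after it, and 1.18 with SMAD1/5 at 382 bp before it. These windows lay at different places for the 3 antibodies. At the 3 probes of the SMAD2 window SMAD4 lay between -1.15 and -0.86, its lowest window of the gene, and SMAD2 averaged 0.96 ± 1.47. At the SMAD1/5 window, with 1.16 ± 1.02 over 5 probes, SMAD4 averaged -0.36 ± 0.64 and SMAD2 -0.44 ± 1.38.

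Tgif1 encodes a homeodomain corepressor of SMAD2. Its best SMAD4 window, at chr17:69133348-69134215 and centred 2996 bp before the start, had a z of 2.53. The 5 probes, 3457, 3176, 2996, 2772 and 2649 bp before the start, had SMAD4 log2 ratios between 0.37 and 2.65, 4 of 5 above 1, and a geometric mean of 2.78 times the array median, with an SD of 0.84 on the log2 scale. With SMAD2 they had -1.24, -0.73, 0.87, 0.87 and -1.41, a mean of -0.33, and with SMAD1/5 they had 1.77, -0.70, -0.09, 1.23 and -2.32, a mean of -0.02 ± 1.62. SMAD4 lay above SMAD2 at 4 of the 5 probes. In this window the SMAD4 immunoprecipitate averaged 0.51 and its input -0.86, while the SMAD2 levels were -0.38 and -0.12 and the SMAD1/5 levels 0.51 and 0.98. A z of 2.53 is common with this antibody, since 40.1% of all genes had a window of at least 2. With the mean input of the 3 antibodies the highest SMAD4 window of Tgif1 fell to a z of 1.38, and it stayed above 2 in the 7 other alternatives.

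The Tgif1 promoter itself averaged -0.13 ± 0.68 with SMAD4, 0.37 ± 0.78 with SMAD2 and 0.27 ± 1.38 with SMAD1/5 over 12 probes. Its log2 level in the immunoprecipitate was -0.17 with SMAD4, -0.18 with SMAD2 and -0.35 with SMAD1/5, and in the input 0.07, -0.61 and -0.18, in the same order of antibodies. Over all its 39 probes, 17 had a SMAD1/5 log2 ratio of at least 1, or 43.6%, against 25.3% of all probes of array 2. With SMAD4 8 probes did, 20.5% against 16.5%, and with SMAD2 4 did, 10.3% against 12.6%. The best SMAD1/5 window of Tgif1, centred 5474 bp before the start, averaged 1.76 ± 0.75 over 4 probes, a z of 1.73.

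**Figure D3:**
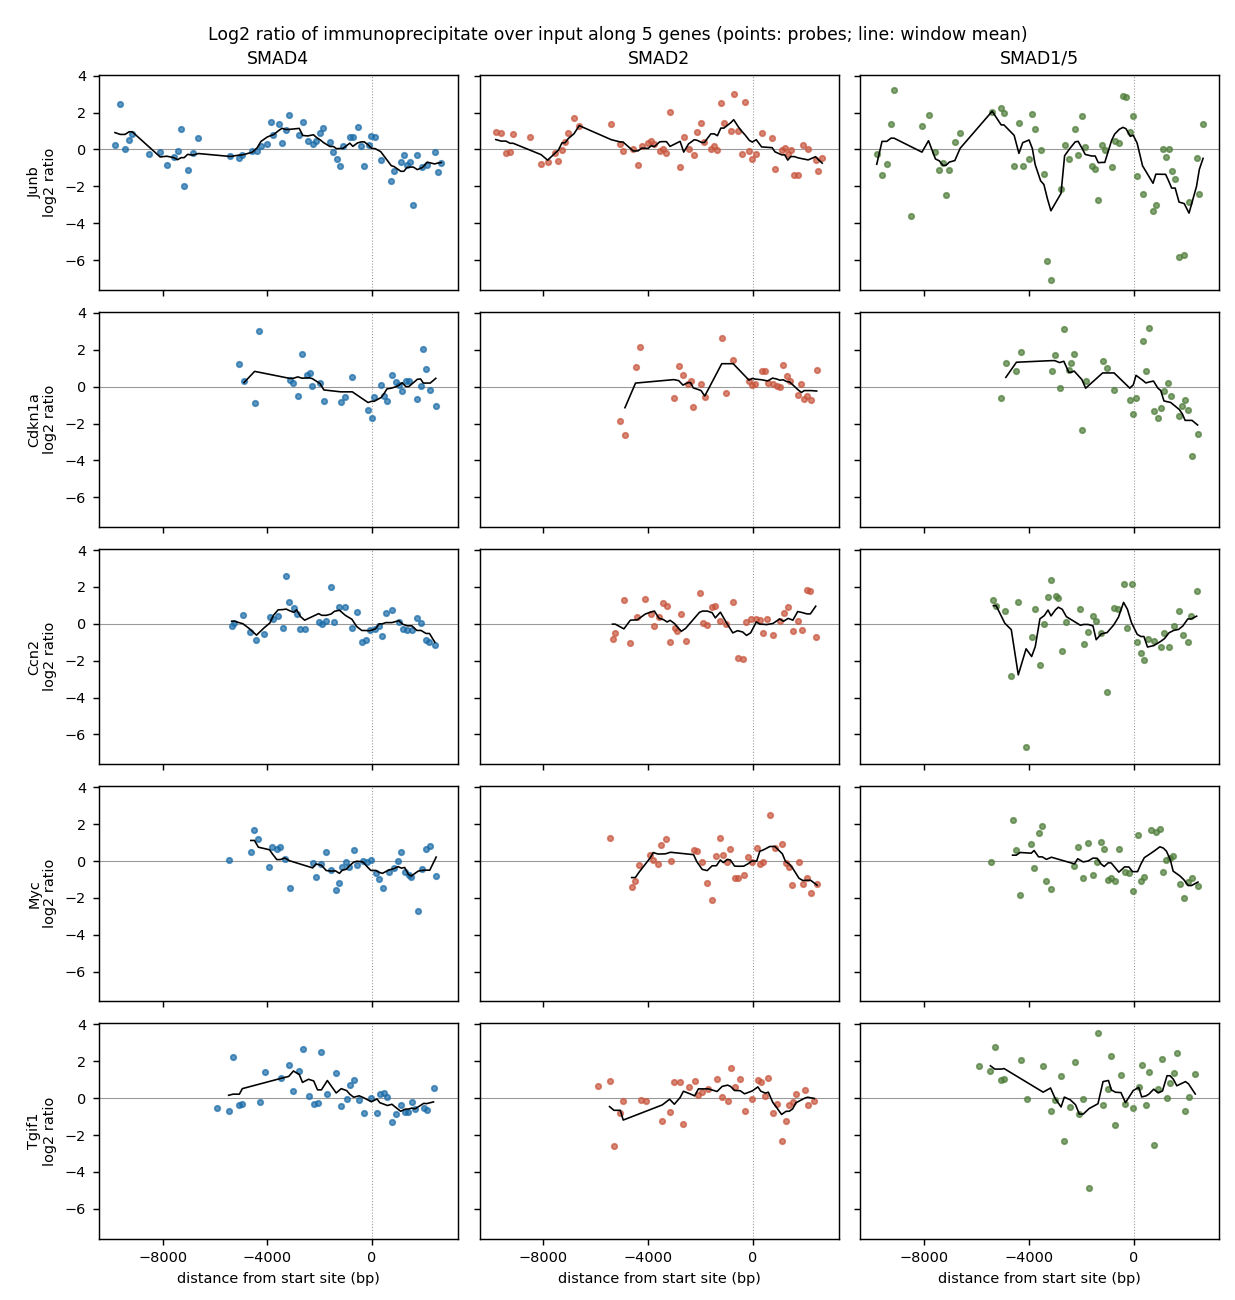
Each panel plots the log2 ratio of immunoprecipitate over input (y axis) against distance from the annotated start site in bp (x axis), for the 5 genes from top to bottom and for SMAD4, SMAD2 and SMAD1/5 from left to right, with points for probes and a line for the window mean. The SMAD1/5 points scatter widest, down to -7.08 at Junb, and the SMAD2 line of Junb rises before the start to 1.61.

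The levels of the 5 promoters were also set side by side within each antibody. With SMAD4 the order of promoter means ran Junb 0.01, Tgif1 -0.13, Ccn2 -0.15, Myc -0.34 and Cdkn1a -0.38. With SMAD2 it ran Junb 0.63, Cdkn1a 0.46, Tgif1 0.37, Myc 0.16 and Ccn2 -0.26, and with SMAD1/5 Tgif1 0.27, Cdkn1a 0.06, Ccn2 -0.05, Junb -0.17 and Myc -0.21. In each order no neighbours differed by more than the SD over probes. The median of the 5 was -0.15 with SMAD4, 0.37 with SMAD2 and -0.05 with SMAD1/5, beside medians over all promoters of 0.00, 0.05 and -0.30. These medians rested on each array's own input: with the mean input of the 3 antibodies the median of the 5 was 0.13 with SMAD4, -0.17 with SMAD2 and 0.08 with SMAD1/5, beside -0.07, -0.10 and -0.16 over all promoters. The promoter mean was above 0 for 1 of the 5 genes with SMAD4, against 50.3% of all promoters, for 4 with SMAD2 against 55.4%, and for 2 with SMAD1/5 against 34.9%. With the mean input the counts were 3, 1 and 4 of the 5, against 43%, 39.2% and 38.6% of all promoters. The order of SMAD4 and SMAD2 among the 5 genes turned round, but 5 genes are too few to set such counts apart from the shares.

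**Figure D4:**
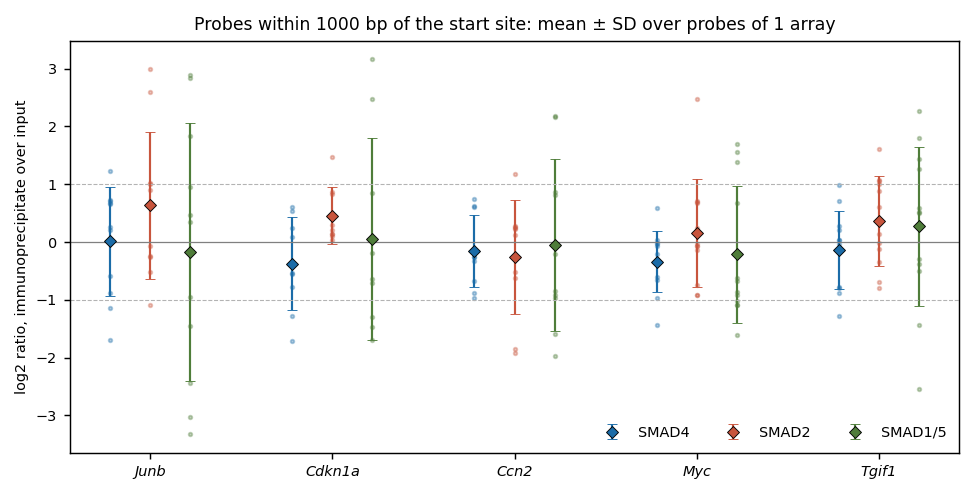
Diamonds give the mean log2 ratio of immunoprecipitate over input (y axis) over the probes within 1000 bp of the start site for each gene (x axis), bars the SD over probes, and small points the probes, with SMAD4, SMAD2 and SMAD1/5 from left to right. All 15 means lie between the dashed lines at -1 and 1, and the SD bars of the 3 antibodies overlap at every gene. Above 0 lie 1 of the 5 SMAD4 means, 4 of the SMAD2 means and 2 of the SMAD1/5 means, against 50.3%, 55.4% and 34.9% of all promoters. With the mean input of the 3 antibodies the counts become 3, 1 and 4, against 43%, 39.2% and 38.6%.

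The ratio was also read along the genes, over the probes more than 1000 bp after the start and those more than 2000 bp before it, a division chosen after the values were seen. With SMAD4 all 5 genes had the lower mean ratio after the start. At Junb the SMAD4 means were -0.88 ± 0.77 over 11 probes after the start, 0 of them above 0, and 0.32 ± 0.88 over 33 probes far before it. At Tgif1 they were -0.41 ± 0.44 over 8 probes and 0.56 ± 1.11 over 15 probes. The differences, after minus before, were -1.19 at Junb, -0.47 at Cdkn1a, -0.62 at Ccn2, -0.66 at Myc and -0.97 at Tgif1. The median over 10730 genes with at least 4 probes on both sides was 0.00. Among these genes the difference lay at the 21.9 percentile for Cdkn1a, 15.4 for Ccn2, 13.9 for Myc and 6.05 for Tgif1. The SMAD4 immunoprecipitate was lower after the start only at Junb, at -0.44 against 1.29 far before it. It was higher after the start at Cdkn1a (0.48 against 0.12), Ccn2 (0.17 against -0.11), Myc (-0.07 against -0.62) and Tgif1 (0.97 against -0.20). At these last genes the SMAD4 input rose by more than the immunoprecipitate did.

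Junb had the lower mean after the start with the other antibodies too, with a difference of -0.72 for SMAD2 and -1.42 for SMAD1/5, at the 9.25 and 9.70 percentiles of all genes, against the 3.14 percentile for SMAD4. At Cdkn1a the largest difference was that of SMAD1/5, -2.45, at the 1.83 percentile. There the 10 probes after the start averaged -1.26 ± 1.17, with 1 of 10 above 0, and the 11 probes far before it averaged 1.18 ± 1.00, with 9 of 11 above 0. The SMAD1/5 immunoprecipitate at Cdkn1a was 0.98 after the start and 0.42 far before it, and its input 2.69 and -0.32, so the input differed more between the stretches than the immunoprecipitate did. The SMAD2 means at Cdkn1a lay closer together, at 0.08 ± 0.67 after the start and -0.08 ± 1.46 far before it. At Tgif1 the SMAD1/5 ratio was positive on both sides, with 0.94 ± 1.09 after the start and 0.71 ± 1.40 far before it.

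The antibodies were compared probe by probe, since arrays of the same number carry the same probes. SMAD4 minus SMAD2 averaged -0.62 ± 1.54 at the Junb promoter, -0.83 ± 0.76 at Cdkn1a, 0.11 ± 1.19 at Ccn2, -0.50 ± 1.23 at Myc and -0.50 ± 0.64 at Tgif1. Only at Cdkn1a did this difference exceed its SD over probes, with SMAD2 higher at 7 of 9 probes. Its 2 channels differed unequally: the SMAD4 immunoprecipitate lay 0.03 above the SMAD2 one on average, and the SMAD4 input 1.03 above the SMAD2 input. With the mean input of the 3 antibodies in place of each array's own, the sign of SMAD4 minus SMAD2 turned at all 5 genes, to 0.21 at Junb, 0.29 at Cdkn1a, -0.10 at Ccn2, 0.05 at Myc and 0.27 at Tgif1. A shared input cancels, so these values hold only the immunoprecipitates and the centring of each ratio on its array's median. The immunoprecipitate levels alone differed by -0.01 at Junb, 0.03 at Cdkn1a, -0.36 at Ccn2, -0.21 at Myc and 0.01 at Tgif1. At Junb and Myc the turned sign thus depended on the centring. SMAD4 minus SMAD1/5 ran between -0.43 ± 1.93 at Cdkn1a and 0.18 ± 2.00 at Junb. SMAD2 minus SMAD1/5 ran between -0.21 ± 1.99 at Ccn2 and 0.80 ± 2.28 at Junb. None of the 15 differences passed 2-fold. Among all promoters 5.2% passed upwards and 3.94% downwards for SMAD4 minus SMAD2, 24.4% and 6.56% for SMAD4 minus SMAD1/5, and 23.5% and 5.96% for SMAD2 minus SMAD1/5. The SMAD4 arrays were extracted with another software version than the others, and version and antibody cannot be told apart there.

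Along the probes of each gene the ratios of different antibodies had little in common, while the channels did. Pearson's r between 2 antibodies' log2 ratios ran from -0.23 to 0.28 over the 33 to 62 probes of a gene, as a description of neighbouring probes that share sequence and fragments. Between immunoprecipitates it ran from 0.48 to 0.89, and between inputs from 0.21 to 0.70. Over all probes of an array the ratios correlated at 0.03 to 0.06, the immunoprecipitates at 0.60 to 0.80 and the inputs at 0.40 to 0.54. Within 1 antibody the ratio of the 5 genes ran against its own input, with r from -0.81 for Junb with SMAD1/5 to -0.29 for Myc with SMAD1/5, and had r between -0.14 and 0.32 with its immunoprecipitate. A ratio contains its own input, so these values share that term.

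The lowest ratios of the 5 genes came from a few SMAD1/5 probes with a bright input. Of the 217 probes, 6 had a SMAD1/5 log2 ratio of at most -4, 4 of them at Junb, 1 at Ccn2 and 1 at Tgif1, and 0 had one with SMAD4 or SMAD2. The share of all probes at this mark was not counted, so the 6 probes are not read as a trait of these genes. At the milder mark of -1 or less stood 26.3% of the 217 probes with SMAD1/5, against 32.9% and 29.1% of all probes of arrays 1 and 2. At Junb the lowest was -7.08, 3161 bp before the start, where the SMAD1/5 input stood 9.08 above its array's median and the immunoprecipitate 1.33. The SMAD4 input at the same probe was -0.77 and the SMAD2 input -0.64. At Ccn2 the probe 4110 bp before the start had a ratio of -6.66 with a SMAD1/5 input of 7.04, and at Tgif1 the probe 1699 bp before it had -4.87 with an input of 7.23. Over the 6 probes the median input level was 0.51 with SMAD4, 0.12 with SMAD2 and 7.37 with SMAD1/5, while the median immunoprecipitate level was 0.76, 0.73 and 1.23. The inputs were whole cell extracts of the same cell line, and at these probes the SMAD1/5 input stood apart from the other two. These probes enter the lowest SMAD1/5 windows of Junb, -3.45 ± 2.31 over 5 probes centred 2121 bp after the start, and of Ccn2, -2.77 ± 3.91 over 3 probes centred 4409 bp before it.

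By promoter means with the 3 antibodies, the nearest genes to Junb were Foxi2 and Eif2ak2, at distances of 0.023 and 0.038 (Euclidean, in log2 units over 3 antibodies). Those nearest to Cdkn1a were Olfr323 and Slc35f5, to Ccn2 I830134H01Rik and Cdh23, to Myc Pgam5 and Taf5, and to Tgif1 Pcdh10 and Vps4b, at distances from 0.0066 to 0.057. Many promoters lay close: 1294 of 15899 were within 0.5 of Junb, 1304 of Cdkn1a, 2058 of Ccn2, 2182 of Myc and 1788 of Tgif1.

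Among paralogs of the 5 genes, 15 of the 16 listed had windows. With SMAD4 9 of 15 had a window z of at least 2 against 40.1% of all genes, with SMAD2 3 of 15 against 18.4% and with SMAD1/5 0 of 15 against 5.94%. None was called enriched, against 2.49% of all genes with SMAD4. Cdkn1b, which encodes the inhibitor p27, had its highest SMAD4 window at a z of 3.49 and a SMAD2 window at 2.23, against 1.36 and 2.21 for Cdkn1a. Its SMAD1/5 promoter mean was -2.73 ± 2.34 over 11 probes, with an immunoprecipitate level of -0.90 and an input level of 2.51. Cdkn1c, the third gene of the p21 family, was called low with SMAD1/5 at a z of -4.43, against 2.62% of all genes. Mycn had a SMAD4 window at 3.26 against 1.88 for Myc, and Ccn4 and Ccn5 had SMAD4 promoter means of 0.83 ± 1.34 and 0.98 ± 0.99 against -0.15 ± 0.63 for Ccn2. Mycl had its highest SMAD4 window at 0.59, below Myc. Ccn1 and Ccn3 had SMAD4 promoter means of -0.27 ± 0.77 and -0.02 ± 1.32, below Ccn4 and Ccn5. Their highest SMAD4 windows, 1.80 and 2.56, lay above the 1.31 of Ccn2. Jun, another AP-1 subunit, had a SMAD2 window of 1.60 against 2.80 for Junb, and Tgif2 a SMAD4 window of 1.62 against 2.53 for Tgif1. Beside the SMAD4 window of 1.93 for Junb, Fosl2, Fos and Fosb stood higher at 3.31, 2.67 and 2.35. Jun, Jund and Fosl1 stood lower at 0.96, 0.99 and 0.79.

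Other TGF-beta genes were read from lists. Of 17 growth control genes with windows, 6 passed a z of 2 with SMAD4, 3 with SMAD2 and 1 with SMAD1/5. Of 23 matrix genes the counts were 15, 7 and 0, and of 12 ligands, stores and receptors 8, 3 and 2, in the same order of antibodies. The shares of the 3 lists were 35.3%, 65.2% and 66.7% with SMAD4 beside 40.1% of all genes, 17.6%, 30.4% and 25% with SMAD2 beside 18.4%, and 5.88%, 0% and 16.7% with SMAD1/5 beside 5.94%. The genes called enriched were Snai1, a repressor of epithelial genes, at a SMAD4 z of 4.11, and Col5a2, a fibrillar collagen, at 4.19. These are 2 of 52 listed genes with windows, beside 2.49% of all genes called enriched with SMAD4. Mmp9, a matrix-degrading protease, was called low with SMAD1/5 at a z of -4.43, 1 of the 52 beside 2.62% of all genes. Median promoter means of the growth control genes were -0.19 with SMAD4, -0.05 with SMAD2 and -1.05 with SMAD1/5, beside -0.15, 0.37 and -0.05 for the 5 genes. Of their 16 promoters with at least 4 probes 9 had a SMAD1/5 mean of at most -1, against 20.3% of all promoters, and 0 of the 5 genes did. At these 9 promoters the SMAD1/5 input ran from 1.09 at Cdkn2a to 4.33 at Skil, beside a median of 0.89 over all promoters. Their SMAD1/5 immunoprecipitate ran from -1.03 at Ski to 1.67 at Skil, beside a median of 0.12. Ccn2 was the one matrix gene of the 5, and its SMAD4 window of 1.31 lay below the matrix genes' median of 2.69. Of the 23 matrix genes, Col1a1 alone had a SMAD1/5 promoter mean of at least 1, 1.49 ± 1.63, against 4.17% of all promoters. Tgfbi alone had one with SMAD4, 1.11 ± 1.56, against 2.69%. A SMAD1/5 mean of at most -1 was found at 5 of the 23 and 2 of the 12 ligands, stores and receptors, beside 20.3%.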

How the data were processed

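The authors deposited scanner output with 1 intensity for each channel of a spot, background-subtracted and dye-normalised by Agilent Feature Extraction, per the file headers. Version 9.5.3.1 was used for SMAD4 and 9.1.3.1 for SMAD2 and SMAD1/5. The deposited files also hold other columns, 0 or 1 flags for spots above background, saturated or outlying, per the file headers. The authors' deposited log2 values, for which the submitters' processing notes name limma, served as an alternative only. Their direction matched immunoprecipitate over input (r from 0.74 to 0.95 over probes), while their scale and centring stay unknown.

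The log2 ratio of the processed channels was centred by subtracting the median of its array, without loess. Outlier-flagged spots, 1 of Cdkn1a and 1 of Myc on SMAD2, were left out. Saturated spots were kept, and no probe of the 5 genes was saturated. Windows took at least 3 probes. The robust SD came from the median distance of windows below the array's median window. Promoter shares of all genes rest on at least 4 probes. The whole table was processed and the window code was tested on simulated data. Titles gave each array's antibody and number, and no test was run. Alternatives were the authors' values, normexp (offset 50), loess, a mean input, other widths, bright probes and flagged spots kept, with limma 3.58.1 in R 4.3.3, pandas 2.3.3 and numpy 2.4.6. Named genes were the 5 genes, the 2 nearest to each by promoter means, paralogs, and some of the list genes past a promoter mean of 1 or -1 or a z of 4. The genes and lists were chosen with earlier results of these data known. Symbols came from the GRCm38.p6 table: 16115 names matched by accession, 319 by symbol, 367 by an older symbol, and 294 were kept.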

Additional observations from a re-analysis of the deposited data

How the results depend on the processing

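No paired analysis was possible because each antibody had 1 replicate, and none was left out. The counts of 0 genes called enriched and 0 promoters past 2-fold held in all 8 alternatives for each antibody. With SMAD1/5 the main processing called 0 of 16725 genes enriched, so that count cannot set the 5 genes apart. The number of genes with a SMAD2 window z of at least 2 was 2, and it was 1 with the authors' values, loess, the mean input, windows of 250 and 1000 bp, and bright probes alone. For SMAD4 it was 1, and 2 with the authors' values, normexp, loess and windows of 250 bp. For SMAD1/5 it was 0, and 4 with normexp, 1 with the mean input and 1 with windows of 1000 bp. An unchanged count could stand for other genes. With the mean input the 1 gene for SMAD4 was Junb, at a z of 2.36, while Tgif1 stood at 1.38. With normexp the 2 genes for SMAD2 were Junb at 2.69 and Myc at 2.06, while Cdkn1a stood at 1.02. The highest SMAD4 window of Junb passed a z of 2 in 4 of the 8 alternatives. Differences between antibodies past 2-fold numbered 0, and for SMAD4 minus SMAD2 1 within 500 bp of the start, and for SMAD2 minus SMAD1/5 1 with normexp, loess, bright probes and within 2000 bp. With the mean input the number of promoter means above 0 was 3 for SMAD4, 1 for SMAD2 and 4 for SMAD1/5, against 1, 4 and 2 with each array's own input. Of all promoters 43%, 39.2% and 38.6% lay above 0 with the mean input, and 50.3%, 55.4% and 34.9% with the own input. The cause of the changed counts was not tested. Promoter means moved by less than the SD over probes in 119 of 120 cases and kept their sign in 93, and differences in 117 and 94 of 120. Single arrays, inputs near background on the SMAD1/5 and SMAD2 arrays, and ratios that ran against their own input limit all values.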
